A study of Mus musculus with 6 samples.

Results

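The genes described here are the regulators of the primitive streak and early mesoderm: T, Mixl1, Eomes, Gsc, Evx1, Wnt3, Lhx1, Mesp1 and Fgf8. Members were found as all probe sets whose platform annotation gives a single symbol from this list, with Tbxt counted as T. Of 9 named genes 8 were found, on 10 probe sets, out of 18193 genes and 45037 probe sets tested. No probe set was paired with T (Brachyury), the T-box factor for which the streak is best known, and T was not analysed here. Eomes and Lhx1 had 2 probe sets each, and the other genes had 1.

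In uninduced ES cells 2 of the 8 genes, Eomes and Mesp1, lay above background, and Mixl1, Gsc, Evx1, Wnt3, Lhx1 and Fgf8 did not. Of all genes 61.8% lay above it by their brightest probe set, and which members pass depends on the limit chosen. None of the 8 passed the test of induction, which 0% of all probe sets passed. None of them passed the test between clones, which 6.84% of all genes passed by their brightest probe set. Of 29 measured genes for signals that act upstream of the streak 5 passed it, and most of these calls ended without single arrays. That list was chosen with earlier results of these data known, and 26 of its 29 measured genes were above background.

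The arrays came from mouse embryonic stem (ES) cells of the line EBRTcH3, in which the coding sequence of human WBSCR1 (Eif4h in mouse, a translation initiation factor), tagged with 3xFLAG, sits in the ROSA26 locus behind a promoter that tetracycline represses. Induced cells were grown for 24 h without tetracycline and control cells with it (0 h without), and the ES medium of the study held LIF. Each of 3 clones, A1, A3 and A4, gave 1 induced and 1 control array, so that a condition has 3 arrays and a clone has 2, and both conditions carry the transgene. Replicates 1, 2 and 3 are clones A1, A3 and A4, each picked as a single colony after nucleofection, and the removal of tetracycline and the expression of the transgene cannot be told apart. The ES cell identity of the label was checked on Pou5f1, Nanog, Sox2 and Zfp42, factors of the pluripotent state, which read 12.83 to 12.93, 12.15 to 12.40, 11.92 to 12.44 and 12.60 to 12.78 log2 over the 6 arrays. All 20 pluripotency genes of a fixed list were above background in the 3 control arrays. Array medians were 5.11 to 5.19 log2.

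The primitive streak is the structure through which epiblast cells of the gastrulating embryo pass to become mesoderm and definitive endoderm. It forms where Nodal, Wnt and BMP signals meet in the posterior epiblast, and the T-box factors T and Eomes, the homeodomain factors Mixl1, Gsc, Evx1 and Lhx1 and the basic helix-loop-helix factor Mesp1 are switched on there in turn. Wnt3 and Fgf8 are ligands: Wnt3 is needed for the streak to form and Fgf8 for cells to move away from it. ES cells kept in LIF correspond to an earlier stage, and the genes of this group are widely used to follow their differentiation into mesoderm.

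The 270 bases around the annotated start are shown for both genes that were above background and, for contrast, for Lhx1, which was not and whose start region was the richest in CpG among the 7 found. Sequences are from RefSeq on GRCm38.p6, 250 bases before the start and 20 after it, 5′ to 3′ along the gene. Capitals mark CpG dinucleotides in Eomes and Lhx1, and a T-box half-site and a TCF/LEF match in Mesp1.
Eomes (chr9:118477939-118478208, + strand): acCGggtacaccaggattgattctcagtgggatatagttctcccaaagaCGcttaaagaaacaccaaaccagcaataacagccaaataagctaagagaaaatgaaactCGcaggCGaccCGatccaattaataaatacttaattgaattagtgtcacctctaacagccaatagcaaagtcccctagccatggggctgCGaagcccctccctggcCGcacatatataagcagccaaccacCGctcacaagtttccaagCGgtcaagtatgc
Mesp1 (chr7:79793571-79793840, - strand): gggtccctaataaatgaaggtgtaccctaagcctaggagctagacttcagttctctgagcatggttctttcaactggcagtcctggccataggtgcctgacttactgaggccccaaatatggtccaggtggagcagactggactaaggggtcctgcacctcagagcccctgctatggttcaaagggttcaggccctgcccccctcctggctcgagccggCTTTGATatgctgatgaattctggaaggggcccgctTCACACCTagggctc
Lhx1 (chr11:84525515-84525784, - strand): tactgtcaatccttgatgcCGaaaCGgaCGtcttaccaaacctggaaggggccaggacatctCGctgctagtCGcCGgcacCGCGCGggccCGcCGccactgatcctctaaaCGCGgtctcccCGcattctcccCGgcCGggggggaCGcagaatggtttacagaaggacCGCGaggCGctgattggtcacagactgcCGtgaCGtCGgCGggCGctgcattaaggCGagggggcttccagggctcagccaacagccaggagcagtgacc

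Start regions of 300 bases were found for 7 of the 9 genes, T included. They held 17 CpG for T, 10 for Eomes, 25 for Gsc, 12 for Evx1, 24 for Wnt3, 31 for Lhx1 and 4 for Mesp1, against a median of 7 over 32851 such regions. Mesp1 thus lay below the median and the other 6 lay above it. The region of Mesp1 was also the one of the 7 that held the T-box half-site TCACACCT, which 1.28% of all regions hold, and the TCF/LEF letters CTTTGAT, which 3.73% hold, each searched on both strands. The FOXH1 letters AATCCACA were in none of the 7 and in 0.855% of all regions. The 2 matches in Mesp1 do not overlap. The motifs were chosen after the sequences were seen, and a match in these letters is a description.

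RMA values come with no detection call, so a background limit was set in each array as the 95th percentile of 83 probe sets for olfactory, vomeronasal and bitter taste receptors, genes of sensory cells. This limit was 5.04 to 5.31 log2 in the 6 arrays, and 5 of the 83 receptor probe sets passed it in all 3 control arrays. A probe set was called above background when it passed the limit in all 3 control arrays. By this rule 3 of 10 probe sets and 25% of the genes of the group were above background, against 46.5% of all probe sets and 61.8% of all genes taken by their brightest probe set.

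**Figure D1:**
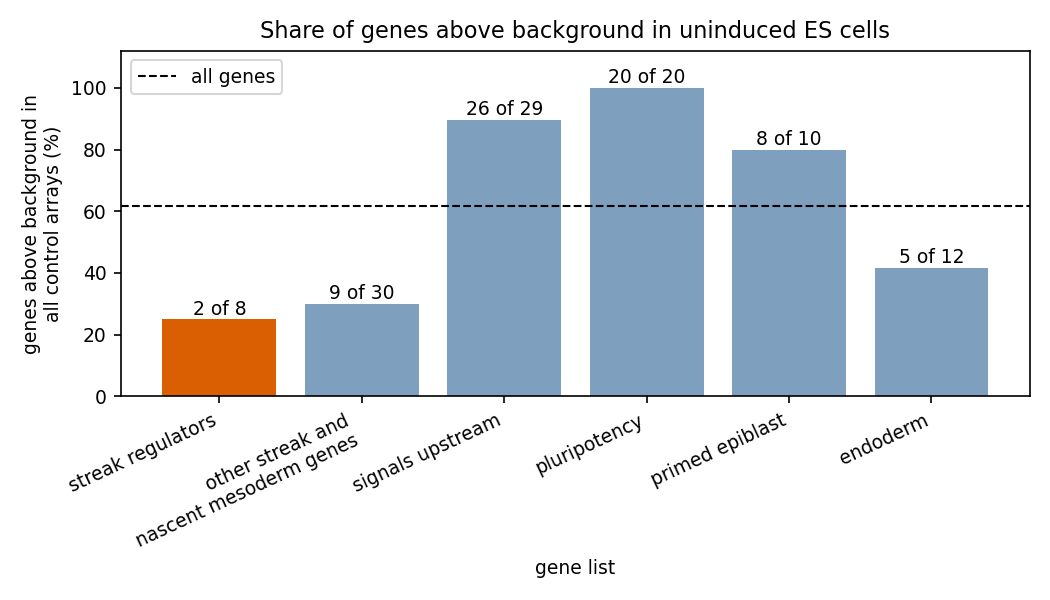
Percent of the measured genes of each list that lay above the background limit in all 3 control arrays (vertical axis), with the counts above the bars and all genes (61.8%) as a dashed line. The streak regulators (2 of 8) and the other streak and nascent mesoderm genes (9 of 30) lie below the line, as do the endoderm genes (5 of 12), and the signals upstream (26 of 29) and pluripotency genes (20 of 20) lie above it.

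Eomes, the T-box factor that acts early in the streak and also in trophoblast, was read by probe sets 1426001_at and 1435172_at (gene at chr9:118478186-118486132, GRCm38.p6 as for all genes here). The first gave 6.06, 5.84 and 6.25 log2 in induced A1, A3 and A4 and 6.02, 6.21 and 6.49 log2 in the control arrays of the same clones. The second gave 6.39, 6.34 and 6.66 log2 in induced and 6.21, 6.36 and 6.46 log2 in control cells. Both were above the limit in all 6 arrays, by 0.90 to 1.28 and 1.05 to 1.25 log2 in the control arrays, and in both the induced and control arrays overlapped. The 2 A4 arrays held the 2 highest values of each probe set.

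Mesp1, a basic helix-loop-helix factor of nascent and cardiac mesoderm, read 5.90, 6.27 and 5.93 log2 in induced A1, A3 and A4 and 6.02, 6.03 and 5.82 log2 in control A1, A3 and A4 (probe set 1426557_at, gene at chr7:79792241-79793590). It was above the limit in all 6 arrays, by 0.61 to 0.98 log2 in control cells. With the 99th percentile as the limit Mesp1 passed in 2 of 3 control arrays, and Eomes in 3 of 3 on both probe sets.

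Of the other homeodomain factors, Mixl1, a paired-type factor of the streak, and Evx1, a factor of its posterior part, came nearest to the limit from below. Mixl1 (1421505_at, chr1:180693043-180697034) read 4.89, 4.80 and 4.90 log2 in induced A1, A3 and A4 and 4.83, 4.93 and 4.74 log2 in control cells, between 0.21 and 0.47 log2 under the limit in the control arrays. Evx1 (1421627_at, chr6:52313498-52318389) read 4.69, 4.72 and 4.71 log2 in induced and 4.72, 4.99 and 4.85 log2 in control cells, 0.32 to 0.36 log2 under it. The antisense transcript beside it, Evx1os, read 3.16 to 3.40 log2 over the 6 arrays, also under the limit. Mixl1 and Evx1 passed when the 90th percentile was used, which made 5 probe sets of 10 in place of 3.

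Gsc, the homeodomain factor of the organizer, and Lhx1, a LIM-homeodomain factor of the anterior streak and head organizer, lay far below the limit. Gsc (1421412_at, chr12:104471209-104473236) read 3.14, 3.09 and 3.10 log2 in induced A1, A3 and A4 and 3.38, 3.14 and 3.42 log2 in control cells, and the groups overlapped by a small margin between induced A1 and control A3. The first Lhx1 probe set (1421951_at, chr11:84517975-84525534) read 3.23, 3.56 and 3.31 log2 in induced and 3.18, 3.48 and 3.44 log2 in control cells. The second (1450428_at) read 3.30, 3.33 and 3.21 log2 in induced and 3.51, 3.48 and 3.43 log2 in control cells, so that all induced arrays were below all control arrays. Both were designed on the same transcript accession and both stayed at least 1.53 log2 under the limit in control cells.

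The ligands were dim too. Wnt3 (1450763_x_at, chr11:103774175-103818021) read 2.86, 2.67 and 3.08 log2 in induced A1, A3 and A4 and 2.76, 2.75 and 2.65 log2 in control cells. The suffix of this probe set marks probes that may also bind transcripts of other genes. Fgf8 (1451882_a_at, chr19:45736491-45742941) read 4.07, 4.12 and 4.07 log2 in induced and 3.94, 4.05 and 4.25 log2 in control cells, 0.96 to 1.26 log2 under the limit. No member changed side of the limit on induction: Eomes and Mesp1 were above it in 3 of 3 induced arrays, and the other 7 probe sets in 0.

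**Figure D2:**
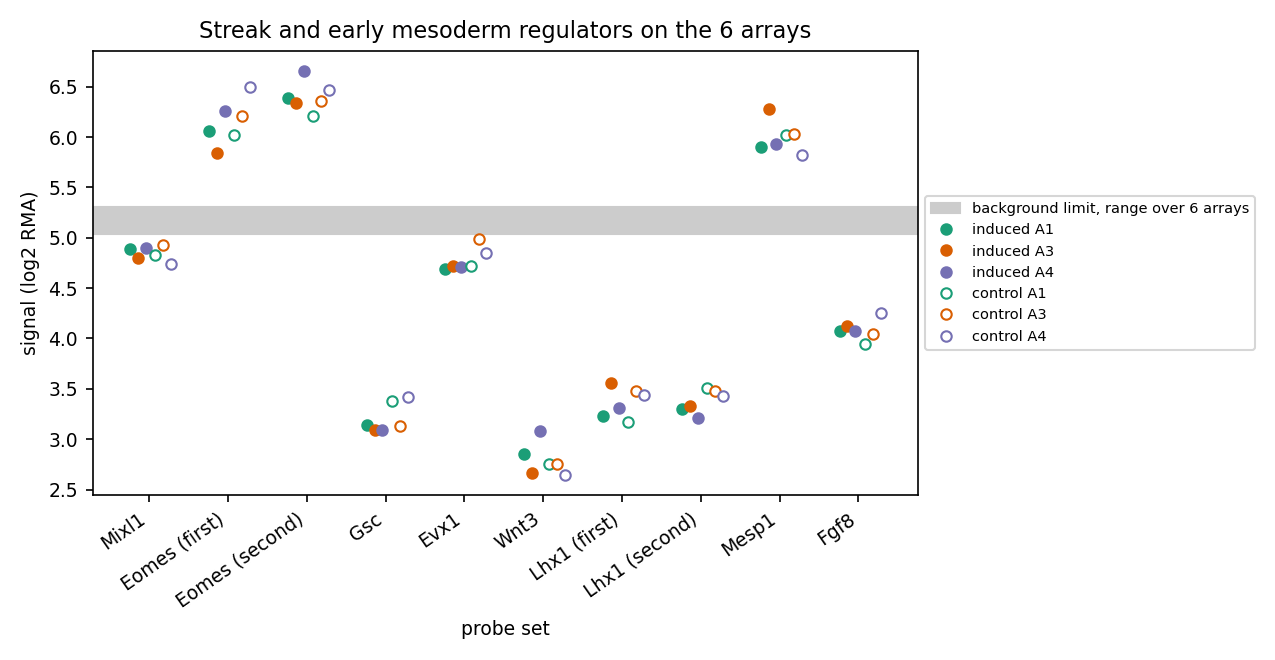
Signal (vertical axis, log2 RMA) of the 10 probe sets of the group on the 6 arrays, with induced arrays as filled and control arrays as open circles, coloured by clone, and the grey band as the range of the background limit (5.04 to 5.31 log2). Both Eomes probe sets and Mesp1 lie above the band on all arrays, and the other 7 lie below it on all arrays.

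The comparison of induced with control cells asks which genes changed when WBSCR1 was switched on. No probe set of the group passed (limma, Benjamini-Hochberg over all probe sets), nor did any other on the arrays (0%, with 676 at an unadjusted p under 0.05). The smallest unadjusted p among the 10 was 0.0639. The methods' t-test also called 0 after adjustment. The limma fit leaves clone out, so differences between clones enter its SE and 95% intervals. With clone as a block 0 passed too, and 1539 probe sets had an unadjusted p under 0.05. The difference was -0.19 ± 0.16 log2 for the first and 0.12 ± 0.12 for the second Eomes probe set (SE), so the 2 pointed in opposite directions. It was 0.079 ± 0.13 for Mesp1, 0.029 ± 0.095 for Mixl1, -0.15 ± 0.10 for Evx1, -0.20 ± 0.11 for Gsc, 0.0018 ± 0.13 and -0.19 ± 0.088 for Lhx1, 0.15 ± 0.12 for Wnt3 and 0.0073 ± 0.11 for Fgf8. The 95% intervals of the 10 probe sets reached from -0.56 to 0.44 log2 at their outermost, or from 0.680-fold to 1.35-fold. For probe sets under the background limit this bounds the signal and not the amount of transcript.

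By clone, the largest values on induction were 0.44 log2 for Wnt3 in A4 and -0.37 log2 for the first Eomes probe set in A3. The change of Wnt3 was 0.10 in A1 and -0.08 in A3, and that of the Eomes probe set was 0.04 in A1 and -0.24 in A4. For Mesp1 the difference was 0.24 log2 in A3, 0.11 in A4 and -0.12 in A1. Gsc (-0.23, -0.05 and -0.32 in A1, A3 and A4), Evx1 (-0.03, -0.27 and -0.14) and the second Lhx1 probe set (-0.21, -0.15 and -0.22) were lower in induced cells of all 3 clones. They were the 3 of 10 probe sets (30%) with 1 direction in the 3 clones, up or down, against 21.8% of all probe sets. The induced arrays lay below all control arrays for Evx1 and the second Lhx1 probe set, 2 of 10, against 3.42% of all probe sets, and above all of them for 0 of 10, against 2.1%. None of these 3 was above background, the Evx1 groups were parted by 4.721 log2 in induced A3 against 4.723 log2 in control A1, and the first Lhx1 probe set changed by 0.06, 0.08 and -0.13. For the second Lhx1 probe set the methods' t-test gave an unadjusted p of 0.0107 (permutations of 3 against 3 arrays cannot go below 0.1) and limma an unadjusted p of 0.0639. With 1 array for each clone and condition, differences of the change between clones could not be tested.

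**Figure D3:**
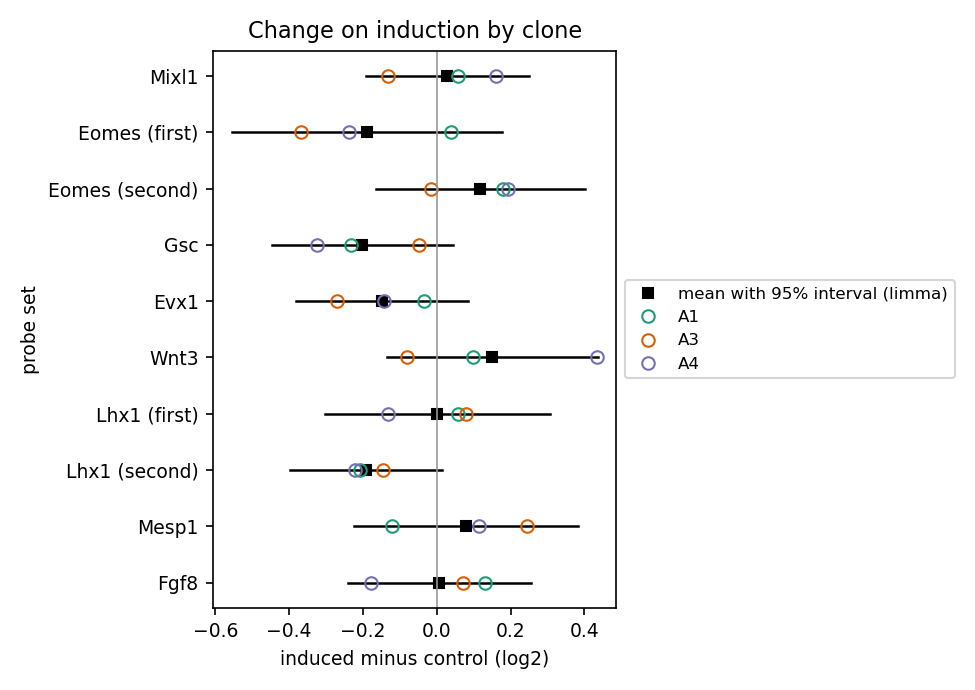
Induced minus control signal (horizontal axis, log2) of the 10 probe sets, with open circles for the 3 clones and black squares for the mean with its 95% interval from limma. All intervals include 0, and the clones lie between -0.37 and 0.44 log2.

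Between clones, 5.54% of all probe sets differed (F test over the clone terms of limma in a fit with condition, adjusted p under 0.05), and 0 of the 10 in this group did. The smallest unadjusted p was 0.0510 and the smallest adjusted p 0.262, both of the first Eomes probe set. The clone means of this probe set were 6.02 log2 in A3, 6.04 in A1 and 6.37 in A4. A3 minus A4 was -0.35 ± 0.13 log2 and A1 minus A4 was -0.34 ± 0.13 (SE), with adjusted p of 0.190 and 1. The second Eomes probe set was also highest in A4 (6.35 in A3, 6.30 in A1 and 6.56 in A4), with A3 minus A4 at -0.21 ± 0.12 and A1 minus A4 at -0.26 ± 0.12, and did not pass (0.409 for the F test). Between A1 and A4 few probe sets differed anywhere on the arrays (0.0178%). Mesp1 averaged 6.15 log2 in A3, 5.96 in A1 and 5.88 in A4 (adjusted p = 0.444).

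The first Lhx1 probe set spanned 0.32 log2, with 3.52 in A3 against 3.20 in A1 (adjusted p = 0.320), and the second 0.084 log2 with A1 highest. The spans were 0.043 log2 for Mixl1, 0.15 for each of Gsc, Evx1, Fgf8 and Wnt3. The median span of the 10 probe sets was 0.154 log2, and that of all probe sets was 0.208 log2. Of the 10, 7 lay under the background limit, where RMA compresses differences, so these medians are not like for like. Over all pairs of clones the 95% intervals of the 10 lay within -0.66 and 0.59 log2. Since Eomes spanned the most, the genes whose brighter or dimmer arrays followed it best were read among 580 probe sets above background in at least 1 array and with a span of at least 1 log2. They were Pelp1, Gm6958, Mtss1, Bhlhe40 and Jmjd1c, with a Pearson r of 0.761, 0.743, 0.739, 0.734 and 0.726 over the 6 arrays. These arrays are 3 pairs of 1 clone each, and the 2 Eomes probe sets themselves correlated at 0.538. The named genes are the highest among 580 probe sets, for an Eomes probe set that did not pass between clones. They are given as a description, and their link with Eomes was not tested.

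Other genes of the streak and nascent mesoderm, 30 on a fixed list, were mostly dim as well: 9 were above background in all 3 control arrays and 13 in 0. The 9 were Mesp2, Msgn1, Snai1, Sp5, Dll1, Etv2, Apln, Hand1 and Kdr, named here after their values were seen. Mesp2, the neighbouring paralog of Mesp1, read 5.76 to 6.10 log2, and Msgn1, a factor of presomitic mesoderm, 5.45 to 5.66 log2. On induction 0 of the 30 passed (12 higher and 18 lower by sign), with a median of -0.016 log2, against -0.0031 log2 over all probe sets. The smallest p were those of Sp8 (-0.20 ± 0.12 log2, SE) and Foxc1 (-0.19 ± 0.12), both below background. Between clones 1 of the 30 passed the F test, where 6.84% of all genes did by their brightest probe set. Gata4, named after its values were seen, missed it (adjusted p 0.0613). Its limma contrasts passed, A3 minus A1 at -0.74 ± 0.18 log2 (adjusted p 0.0495) and A3 minus A4 at -0.78 ± 0.18 (0.0429). Gata4 was above background in 2 of 3 control arrays. The gene that passed the F test was Pdgfra, a receptor of mesoderm and of primitive endoderm. It read 4.50 and 4.31 log2 in induced and control A3, 5.08 and 5.22 in A1 and 4.48 and 4.59 in A4, with an adjusted p of 0.0275 in the F test. It was called on 1 of its 3 probe sets, it was above background in 1 of 6 arrays, and the call ended without control A1 (adjusted p 0.192), control A3 (0.0652) or induced A1 (0.132).

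The signals that act upstream of the streak were present by the same measure, with 26 of 29 measured genes above background in all 3 control arrays. Nodal, the TGF-beta family ligand that patterns the epiblast, read 10.29 to 10.72 log2, its co-receptor Tdgf1 12.35 to 12.71 and Ctnnb1 (beta-catenin), the effector of Wnt signalling, 12.66 to 12.91. Wls and Cer1 were above background in 0 of 3 control arrays and Dkk1 in 1. On induction 0 of the 29 passed, with a median of -0.025 log2, and the smallest p were those of Fgfr1, a receptor for Fgf8 (-0.23 ± 0.12 log2, SE), and Tcf7l1, a repressor of Wnt target genes (-0.16 ± 0.12).

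Between clones 5 of the 29 passed, 2 highest in A3 and 3 lowest in A3, where 3.02% and 3.78% of all genes were called with A3 highest and lowest. The list was chosen with earlier results of these data known and holds mostly genes above background, so these shares are not like for like. Lefty1, a secreted inhibitor of Nodal, read 11.49 and 11.56 log2 in induced and control A3, 10.40 and 10.30 in A1 and 9.94 and 9.92 in A4. A3 was higher than A1 by 1.17 ± 0.11 log2 and than A4 by 1.59 ± 0.11 (SE, adjusted p 0.00194 and 0.000702 by limma), and the 2 A3 arrays stood apart from the other 4. Lefty2, the related inhibitor, read 9.03 and 9.18 log2 in A3, 8.30 and 8.08 in A1 and 8.69 and 8.41 in A4, with A3 minus A1 at 0.92 ± 0.14 (adjusted p 0.00989) and A3 minus A4 at 0.56 ± 0.14 (0.0564).

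The 3 genes called with A3 lowest were Axin2, Bmp4 and Smad1. Axin2, a target and inhibitor of Wnt signalling, read 7.16 and 7.24 log2 in induced and control A3, 7.82 and 7.96 in A1 and 7.71 and 7.84 in A4 (A3 minus A1 -0.69 ± 0.11, adjusted p 0.0118, and A3 minus A4 -0.58 ± 0.11, 0.0240). Bmp4, the ligand that acts on the epiblast from the extraembryonic ectoderm, read 9.75 and 9.58 log2 in A3, 10.32 and 10.15 in A1 and 10.30 and 10.53 in A4 (A3 minus A4 -0.75 ± 0.14, adjusted p 0.021). Its A3 minus A1, -0.57 ± 0.14, did not pass (0.0531). Smad1, which carries the BMP signal, read 7.76 and 8.0 log2 in A3, 8.43 and 8.66 in A1 and 8.48 and 8.36 in A4 (A3 minus A1 -0.66 ± 0.13, adjusted p 0.0270). Its A3 minus A4, -0.54 ± 0.13, did not pass (0.0540). Axin2 was called on 1 of 2 probe sets and Smad1 on 1 of 3. Lef1, a transcription factor that carries the Wnt signal, named after its values were seen, went the other way: its brightest probe set read 6.87 and 7.25 log2 in induced and control A3, 6.37 and 6.47 in A1 and 6.48 and 6.28 in A4. It missed the F test (adjusted p 0.0565), while A3 minus A1 (0.64 ± 0.15, adjusted p 0.0470) and A3 minus A4 (0.68 ± 0.15, 0.0393) passed, and 1 of its 2 probe sets was called between clones. Lrp5 and Dkk1, of the same list and also named after their values were seen, missed the F test by less (0.0509 and 0.0541). Both were lowest in A3. For Lrp5 A3 minus A4 was -0.90 ± 0.18 (adjusted p 0.0281) and A3 minus A1 -0.70 ± 0.18 (0.0644). For Dkk1 A3 minus A1 was -0.62 ± 0.12 (adjusted p 0.0246) and A3 minus A4 -0.30 ± 0.12 (0.221). Markers of some other lineages differed in A3. Of 12 endoderm genes 6 were called lowest and 1 highest in A3, where 3.78% and 3.02% of all genes were. Of the 12, 5 were above background in all 3 control arrays. The mean signal of the 12 endoderm genes was 5.28 and 5.20 log2 in induced and control A3 against 5.51 to 5.78 in A1 and A4. Afp was under the limit in all arrays. Of 10 primed epiblast genes 4 were called highest in A3, with a mean of the 10 of 7.67 and 7.95 log2 against 7.02 to 7.16. Fgf5 was under the limit in all arrays, and 1 gene of this list was called lower in A3 than in A1. Of 10 trophectoderm genes 1 was called highest and 1 lowest in A3. Of 20 pluripotency genes 1 was called, highest in A3. Between clones 0 of 9 neural ectoderm and 0 of 10 fibroblast and feeder genes were called, against 6.84% of all genes. The part of these markers in the differences of the signals was not tested.

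The call of Lefty1 held without each array in turn. That of Lefty2 ended without control A1, control A3 or induced A1 (adjusted p of the F test 0.110, 0.0984 and 0.0981). That of Axin2 ended without control A1, control A3, induced A1 or induced A3 (0.0808, 0.123, 0.0881 and 0.136). That of Bmp4 ended without control A1, control A3, control A4, induced A1 or induced A3 (0.0843, 0.203, 0.0757, 0.107 and 0.143). Smad1 lost its call without control A1, control A3, induced A1, induced A3 or induced A4 (0.144, 0.127, 0.130, 0.326 and 0.0547). No direction changed in these fits, which leave 1 residual degree of freedom.

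**Figure D4:**
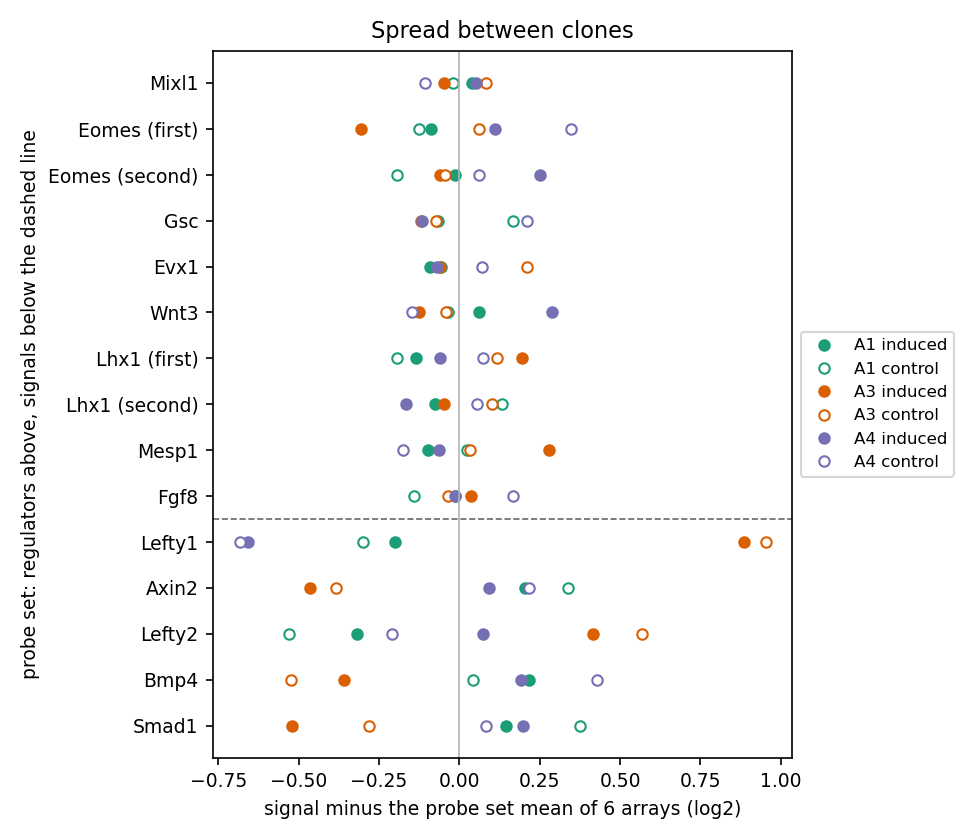
Signal minus the mean of the 6 arrays for each probe set (horizontal axis, log2), for the 10 probe sets of the streak regulators (above the dashed line) and the 5 upstream genes called between clones (below it), with induced arrays filled and control arrays open. The A3 arrays stand apart for Lefty1, where A3 exceeds A4 by 1.59 log2. The regulators have a largest span of clone means of 0.35 log2, and 7 of their 10 probe sets lie under the background limit. The 5 upstream genes were chosen by passing the test between clones and the regulators were not, so their spreads are not comparable.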

How the data were processed

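RNA of 3 clones in 2 conditions was hybridized to 6 Affymetrix whole-genome mouse arrays. The deposited values are log2 signals, summarised by the authors with RMA in the Bioconductor package affy (version not given in the sources used here). RMA normalizes arrays to each other, and it compresses differences between dim probe sets. No further normalization was applied. Of 45101 probe sets 64 controls were left out, and 34945 have 1 symbol, 932 several and 9160 none listed, so that unnamed probe sets could not be assigned to a gene.

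The test of induction, two-sided, was limma 3.58.1 (lmFit, then eBayes; R 4.3.3) on condition alone, with Benjamini-Hochberg adjustment at 0.05 over 45037 probe sets. The study's methods name a t-test and do not say whether it was paired by clone; here it was run unpaired. Clones were compared by an F test and pairwise contrasts with condition in the fit, and each clone has 2 arrays, so p-values rest on the spread between these arrays. The clones pair the arrays by the labels, and deviations from the group means correlated at 0.313, 0.670 and 0.290 within A1, A3 and A4. Induced A1 with control A4 gave 0.369 and induced A4 with control A1 gave 0.348, and A3 with another clone gave -0.489 to -0.455. These values set A3 apart and do not tell A1 from A4. The number of arrays limits the precision.

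All probe sets of the members were named, with the ES cell markers, the upstream and streak genes called between clones (at most 6 a list, by span), the 2 with the smallest p on induction in each list and the 5 genes most like the member with the largest span. Lists were read through the brightest probe set of each gene. Members and lists were chosen with earlier results of these data known. The fits were tested on simulated data. Start regions were matched by symbol in RefSeq windows (GRCm38.p6) of 27025 genes. Python 3.11.15 with matplotlib 3.10.9 drew the plots.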

Additional observations from a re-analysis of the deposited data

How the results depend on the processing

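Induction was read again with clone as a replicate block, by the methods' t-test, with probe sets of a mean of at least 5 log2, with array medians subtracted, after a second quantile normalization, with the trend and robust options of eBayes and without each array or clone. None of these called a probe set, in the group or outside it. The replicate block gave 0 calls with 1539 probe sets at an unadjusted p under 0.05, the t-test 0 with 1096, and the fits without single arrays or clones 0 with 276 (without clone A4) to 2777 (without clone A3). The block changed no call. Between clones, 0 members were called in any of 11 alternatives, while the count over all probe sets was 2496, and 589 to 1959 without single arrays (1115 without control A1, 947 without control A3, 870 without induced A1 and 589 without induced A3), fits that rest on fewer arrays. The count of member probe sets above background was 5 with the 90th percentile, 2 with the 99th and 3 with 5 log2, against 3. Leaving out single control arrays, an alternative chosen after seeing the data, gave 3 each time.

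Directions of differences near 0 turned in fits without single arrays or clones. On induction these ranged from -0.036 to 0.11 log2 for Mixl1, -0.095 to 0.069 for the first Lhx1 probe set, -0.041 to 0.18 for Mesp1 and -0.062 to 0.10 for Fgf8. Between clones they ranged from -0.077 to 0.16 log2 for A3 minus A4 of Mixl1 and from -0.059 to 0.37 for A4 minus A3 of Wnt3. The call of Smad1 between clones also ended after a second quantile normalization (adjusted p 0.0530). Of the 10 probe sets, 7 lay under the background limit, where signal does not follow the amount of transcript closely.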
